A study of Mus musculus with 18 samples.

Results

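The regions described here are stretches of the mouse genome where a TDG peak met both an MBD3 peak and an H3K27ac peak and no H3K4me1 peak. Peaks of TDG from 3 animals on chromosomes 1 to 19 were merged where they overlapped by at least 1 bp, which gave 1121 TDG regions. A region was a member if a peak of any animal for MBD3 and for H3K27ac overlapped it and none for H3K4me1 did. The members were thus chosen by the authors' peak calls for TDG, MBD3, H3K27ac and H3K4me1. This rule left 294 member regions, 26.2% of all TDG regions, and 827 other TDG regions. The presence of MBD3 and H3K27ac and the absence of H3K4me1 are therefore no findings. PolII_S5P, the number of animals with a TDG peak, the strength of that peak, the distance between summits and the spacing of the regions did not enter the rule.

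TDG (thymine DNA glycosylase) is a base excision repair enzyme that removes thymine from G:T mismatches and removes oxidised forms of 5-methylcytosine, so that it acts in DNA demethylation. MBD3 is a subunit of NuRD, a complex that combines nucleosome remodelling with histone deacetylation. H3K27ac, acetylation of histone H3 at lysine 27, marks active promoters and enhancers, and H3K4me1, monomethylation at lysine 4, is found mainly at enhancers. PolII_S5P is RNA polymerase II phosphorylated on serine 5 of the repeats in its C-terminal domain, a form found near the starts of transcribed genes. The title of the series names an interaction of TDG with MBD3/NuRD at active promoters.

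All samples were frozen cerebral cortices of wild-type female C57BL/6J mice aged 14 weeks, bought from a supplier, and the labels give no treatment. Animals 5, 7 and 9 each gave a TDG, an MBD3, an H3K27ac, an H3K4me1 and a PolII_S5P library by chromatin immunoprecipitation sequencing (ChIP-seq), and an input, which was not analysed here. The number ties the 5 libraries of an animal together. The cortex is a mixture of neurons, glia and vascular cells, so peaks that overlap may come from different cells, and a peak in fewer cells cannot be told apart from a weaker peak in each cell. Genes on the build of the files, mm39, were not used here, so the tissue was not checked against marker genes and regions are given by position.

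The TDG lists were short and of unequal length, with 125, 240 and 934 peaks in animals 5, 7 and 9. The MBD3 lists held 56738, 61187 and 38821 peaks, the H3K27ac lists 66055, 67877 and 57846, the H3K4me1 lists 33744, 45575 and 22555, and the PolII_S5P lists 4351, 19509 and 12526. Read depth is unknown. Differences between animals in how many regions were called therefore cannot be told apart from depth or from the yield of the immunoprecipitation. Animal 9 alone supplied 212 of the 217 member regions with a TDG peak in 1 animal, and 608 of the 783 such other regions. Without its libraries the rule left 80 members. Classes of regions were compared over the 3 animals by exact permutation, two-sided throughout. With 3 values against 3 such a test cannot give a p below 0.1, so no single comparison could pass 0.05. The 19 comparisons made were adjusted together by the Benjamini-Hochberg method, and the lowest adjusted p was 0.238. Intervals in brackets are exact binomial intervals at the 95% level. They cover counting error only, and regions are not replicates.

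Member regions recurred between animals more often than other TDG regions. TDG peaks were found in 1 animal at 217 member regions, in 2 animals at 32 and in 3 animals at 45. The 77 member regions with TDG in 2 or 3 animals made up 26.2% of members (21.3 to 31.6%), against 44 of the 827 other TDG regions (5.32%, 3.89 to 7.08%) and 10.8% of all TDG regions. The same count was 9 of 304 (2.96%) at regions that carried MBD3, H3K27ac and also H3K4me1, and 4 of 226 (1.77%) at TDG regions without any other peak. Seen from the other side, members made up 21.7% of the 1000 regions with TDG in 1 animal, 48.5% of the 66 regions with TDG in 2 and 81.8% of the 55 regions with TDG in 3, where TDG in 3 animals was the case at 4.91% of all TDG regions.

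Within each animal the direction was the same. Of the TDG-bearing member regions, 95.7% in animal 5, 96.6% in animal 7 and 26.6% in animal 9 also had a TDG peak in another animal, against 59.3%, 15.9% and 5.74% of the other TDG regions. The means were 72.9 ± 40.1% for members and 26.98 ± 28.4% for other regions (SD, n = 3), a difference of 46.0 ± 31.0 percentage points that was positive in 3 of 3 animals (two-sided exact permutation p = 0.2). The 2 groups of values overlapped, and animal 9, with the longest list, was low in both. Against the regions with H3K4me1, where the shares were 58.3%, 50% and 2.39% of 12, 8 and 293 regions, the difference was 36.0 points (exact permutation p = 0.3). The values of the 3 animals share regions and are not fully independent. Of the members with TDG in 2 or 3 animals, 37 lay in runs of 4 or more neighbouring members, described below. Outside these runs, 40 such members stood beside 200 with TDG in 1 animal. Without the members in these runs the difference from other TDG regions was 41.5 points (exact permutation p = 0.2). The longest run held 16 of the 37, counted as separate regions, and unique read assignment between them was not tested. Without that run the difference was 43.8 points.

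The marks that admitted the members were themselves mostly present in every animal. MBD3 peaks of all 3 animals lay at 252 member regions and H3K27ac peaks of all 3 at 224, and both sets were complete at 202. That was the case at 146 of 217 members with TDG in 1 animal (67.3%), 16 of 32 with TDG in 2 (50%) and 40 of 45 with TDG in 3 (88.9%). The share thus had its lowest value at TDG in 2 animals and did not follow the number of animals in order. At the other end, 5 members rested on a peak of 1 animal for each of MBD3 and H3K27ac.

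TDG peaks at member regions were also strong within their own lists. Strength is given as the fold enrichment the authors' peak caller wrote for the best TDG peak of a region, which is the authors' value, and as its percentile in the TDG list of that animal. The median fold at member regions was 7.45 in animal 5, 8.46 in animal 7 and 4.63 in animal 9, against 5.63, 4.24 and 4.47 at other TDG regions. The corresponding median percentiles were 63.6, 85.4 and 57.7 at members and 39.0, 42.4 and 51.6 at other regions. All 3 values of members lay above all 3 of the others, with means of 68.9 ± 14.6 and 44.3 ± 6.53 and a difference of 24.6 ± 18.5 (SD, n = 3, exact permutation p = 0.1, adjusted p = 0.238). Without animal 7 the difference was 14.2, and with regions within 100 kb counted once it was 22.2 with overlapping groups (exact permutation p = 0.3). That setting kept, from neighbouring regions of a class, the one with TDG in most animals and then the strongest TDG peak. It thus selects on strength and cannot serve as a check of it. Regions with H3K4me1 had percentiles of 36.2, 60.6 and 51.6, from 12, 8 and 293 regions, and there the groups overlapped (difference 19.4, exact permutation p = 0.2).

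This strength sat in the recurrent members. Those with TDG in 2 or 3 animals had median folds of 7.51, 8.53 and 9.67 in animals 5, 7 and 9, at percentiles of 65.0, 85.7 and 93.7. The 212 members with TDG in animal 9 alone had a median fold of 3.85, at percentile 32.5 of that list. Other TDG regions found in animal 9 alone had a median fold of 4.47, at percentile 51.6, so members with TDG in 1 animal were the weaker of the 2 sets there. The 5 remaining members with TDG in 1 animal had medians of 3.66 (3 regions, animal 5) and 4.78 (2 regions, animal 7). Other TDG regions shared between animals had medians of 6.60, 4.23 and 7.07, below the recurrent members in each animal. Recurrent regions are wider by construction, since merged peaks add up, and the part of width in admitting them to the members was not tested. The median width was 309.5 bp at members (206 to 1359 bp) and 275 bp at other TDG regions.

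**Figure D1:**
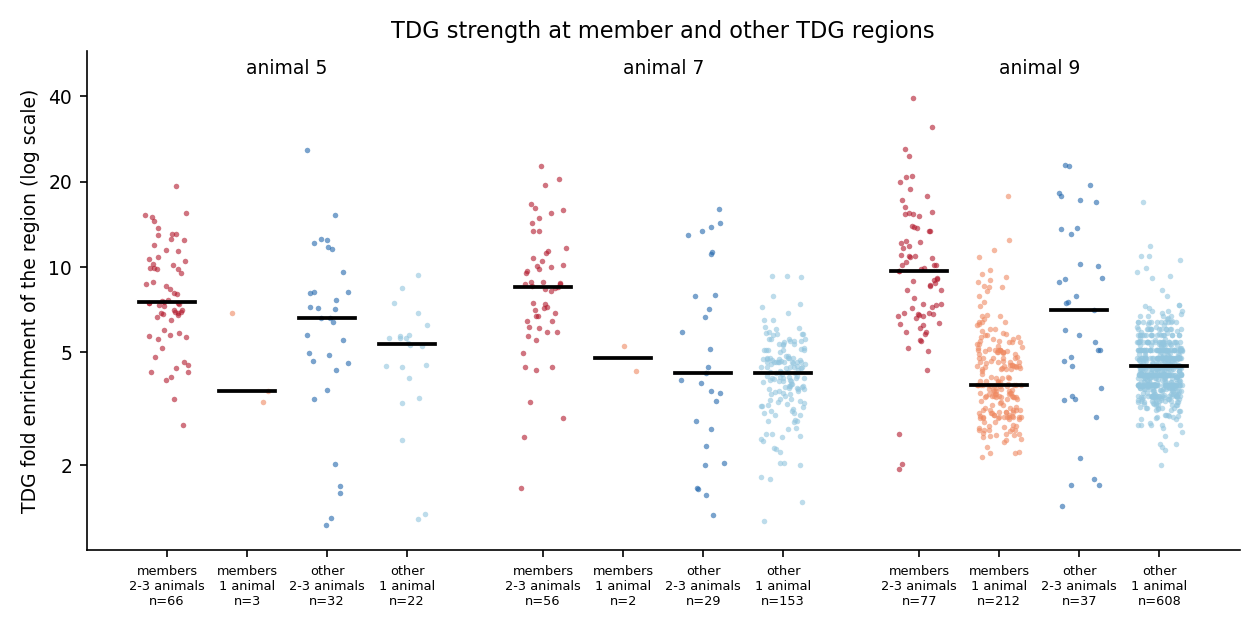
TDG fold enrichment (log scale, the authors' value for the best peak of a region) of member and other TDG regions in animals 5, 7 and 9, split by the number of animals with a TDG peak, with 1 point per region and the median as a bar. Members with TDG in 2 or 3 animals had medians of 7.51, 8.53 and 9.67, while the 212 members with TDG in animal 9 alone had a median of 3.85.

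The members with the stronger TDG peaks did not carry the stronger H3K27ac peaks. At recurrent members the MBD3 peak had a median percentile of 83.05, 80.8 and 40.9 in the MBD3 lists of animals 5, 7 and 9, and the H3K27ac peak 69.0, 79.1 and 46.2 in its lists. At members with TDG in 1 animal these values were 81.0, 80.9 and 72.5 for MBD3 and 85.9, 84.1 and 86.4 for H3K27ac. In animal 9 the recurrent members thus combined TDG peaks at percentile 93.7 with MBD3 and H3K27ac peaks below the middle of their lists. For the 45 members with TDG in 3 animals the values in animal 9 were 37.7 for MBD3 and 30.2 for H3K27ac. The MBD3 peaks of recurrent members were nevertheless wide, with median widths of 1306, 1293 and 767.5 bp against 816, 810.5 and 585 bp at members with TDG in 1 animal. These values describe marks that the rule used and were not tested. The 77 recurrent members include the 16 of the longest run, described below. Its median H3K27ac folds were 2.94, 3.05 and 1.96, against 5.44, 5.76 and 5.08 over all members. The percentiles were not taken without that run.

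PolII_S5P, the mark of transcribed starts, was absent from most member regions and from a larger share of other TDG regions. A PolII_S5P peak of any animal lay at 111 of 294 member regions (37.8%, 32.2 to 43.6%), against 164 of 827 other TDG regions (19.8%, 17.2 to 22.7%) and 24.5% of all TDG regions. No such peak was called at the other 183 members. The regions with H3K4me1 had PolII_S5P at 98 of 304 (32.2%). The PolII_S5P peak was present in all 3 animals at 21 of 294 members and at 47 of 827 other TDG regions.

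The share with PolII_S5P in the same animal as the TDG peak had no common direction. It was 7.25% in animal 5 (5 of 69 member regions), 29.3% in animal 7 (17 of 58) and 29.4% in animal 9 (85 of 289). At other TDG regions it was 44.4% (24 of 54), 10.99% (20 of 182) and 15.5% (100 of 645). All TDG regions of each animal together had 23.6%, 15.4% and 19.8%. Members were lower in animal 5 and higher in animals 7 and 9, so that the mean difference was -1.66 ± 30.9 points (SD, n = 3, exact permutation p = 0.9). Without animal 5 it was 16.3 points, without members in runs of 4 or more it was 9.23 points, and with the summits of the other peaks required inside the TDG region it was 8.23 points. Regions with H3K4me1 had shares of 91.7%, 87.5% and 22.2% (difference -45.1 points, exact permutation p = 0.3), the first 2 from 12 and 8 regions only.

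Recurrent members and members with TDG in 1 animal were then set apart for PolII_S5P. Here every region of a class was set against the PolII_S5P list of each animal. Of the 77 recurrent members, 3.90%, 20.8% and 13.0% had a PolII_S5P peak in animals 5, 7 and 9, against 34.1%, 38.6% and 40.9% of the 44 recurrent other regions. All 3 member values lay below the 3 others, a difference of -25.3 ± 6.57 points (SD, n = 3, exact permutation p = 0.1, adjusted p = 0.238). Among the 217 members with TDG in 1 animal, PolII_S5P lay at 9.22%, 32.3% and 35.9%, against 6.90%, 11.2% and 13.8% of the 783 such other regions. This difference was 15.2 ± 11.1 points and positive in 3 of 3 animals, but the groups overlapped (exact permutation p = 0.3). Among members themselves the recurrent ones were lower than those with TDG in 1 animal in 3 of 3 animals, by a difference of -13.3 ± 8.95 points (exact permutation p = 0.3). All classes together had 8.21%, 17.0% and 19.1%. None of the 37 recurrent members in runs of 4 or more neighbouring members, each within 100 kb of the next, had PolII_S5P. Outside these runs PolII_S5P lay at 7.5%, 40% and 25% of the 40 recurrent members and at 9%, 33.5% and 37.5% of the 200 with TDG in 1 animal, a difference of -2.5 points (exact permutation p = 0.9), and in any animal at 45% of both. Against the recurrent other regions the difference was then -13.7 points, with overlapping groups (exact permutation p = 0.3). These splits were made after PolII_S5P at the members had been seen.

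**Figure D2:**
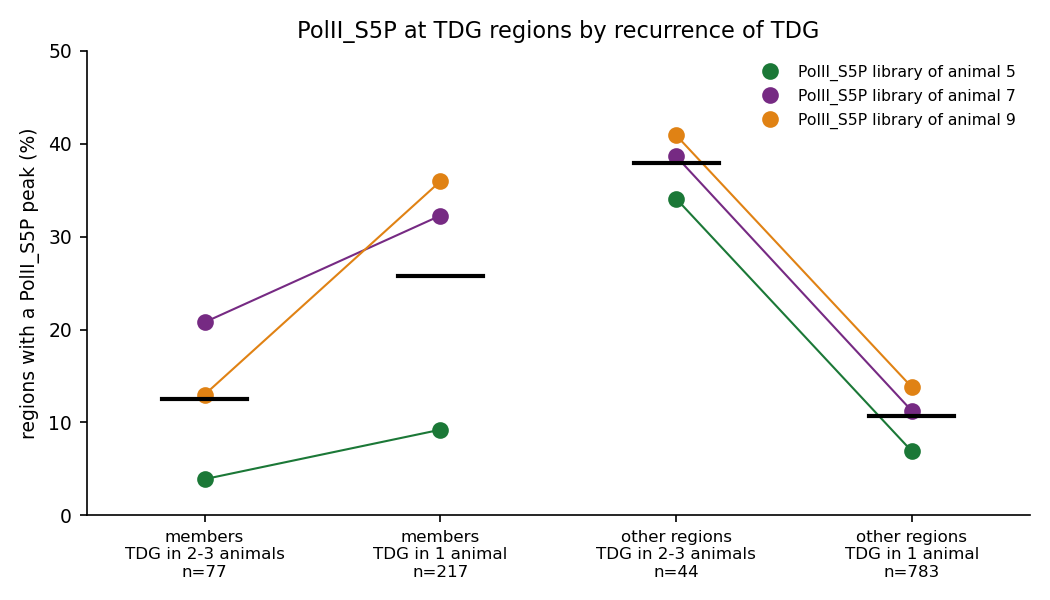
Percent of regions with a PolII_S5P peak in each of the 3 PolII_S5P lists, for member and other TDG regions with TDG in 2 or 3 animals or in 1 animal. Points are animals, lines join the same animal and bars are means. Recurrent members averaged 12.6% and recurrent other regions 37.9%, while among regions with TDG in 1 animal the means were 25.8% for members and 10.6% for others. Of the 77 recurrent members, 37 lie in runs of 4 or more and have no PolII_S5P peak.

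Absence of PolII_S5P was most frequent at members with TDG in 2 animals. No PolII_S5P peak was called at 124 of 217 members with TDG in 1 animal (57.1%), 30 of 32 with TDG in 2 (93.8%) and 29 of 45 with TDG in 3 (64.4%). The H3K27ac peaks of members with and without PolII_S5P also stood apart. Where PolII_S5P was present, the H3K27ac peak had a median percentile of 91.96, 90.6 and 91.3 in animals 5, 7 and 9. Where it was absent these were 69.0, 75.8 and 72.2, a description of a mark the rule used. The PolII_S5P peaks themselves had fold enrichments of 2.25 to 8.90 in animal 5, 2.35 to 16.3 in animal 7 and 2.04 to 14.3 in animal 9. Of the 69, 58 and 289 members with a TDG peak in animals 5, 7 and 9, the TDG summit lay inside a PolII_S5P peak of that animal at 5.80%, 12.1% and 23.2%.

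Merged MBD3 sites with H3K27ac and without H3K4me1 were then compared by the presence of TDG. Merging the MBD3 lists gave 27487 regions on chromosomes 1 to 19 with an H3K27ac peak and no H3K4me1 peak, of which 244 (0.888%) held a TDG peak. Of the 294 members, 234 lay on 225 of these 244 sites. PolII_S5P of any animal was present at 29.7% of the 27487 sites. The sites with TDG were wider (median 1054 bp against 648 bp without TDG) and had MBD3 in all 3 animals more often (86.9% against 54.6%). Their MBD3 peaks had median percentiles of 80.6, 78.5 and 55.7 in animals 5, 7 and 9, against 58.3, 56.5 and 43.2 without TDG. Their H3K27ac peaks had 74.8, 78.8 and 71.4, against 66.1, 64.7 and 55.0. PolII_S5P lay at 11.1%, 37.7% and 33.6% of the sites with TDG and at 6.80%, 27.8% and 19.5% of the 27243 without. The means were 27.5 ± 14.3% and 18.03 ± 10.6%, a difference of 9.43 ± 4.96 points that was positive in 3 of 3 animals (SD, n = 3, exact permutation p = 0.4). Without animal 9 it was 2.87 points.

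Width moved with this difference. Sites were placed in 4 classes bounded by the quartiles of the widths with TDG, which lay at 691.25, 1054 and 1446.25 bp, with 61 TDG-bearing sites in each. In the narrowest class PolII_S5P lay at 3.28%, 23.0% and 26.2% of sites with TDG in animals 5, 7 and 9, against 1.47%, 8.19% and 5.69% of 14522 sites without, a difference of 12.4 ± 9.59 points (exact permutation p = 0.3). In the next class the shares were 16.4%, 42.6% and 47.5% with TDG and 8.52%, 35.4% and 24.4% without. In the class above it the 2 sets lay close together, with 14.8%, 52.5% and 39.3% against 14.5%, 58.6% and 40.3%. In the widest class the direction was the opposite, with 9.84%, 32.8% and 21.3% of sites with TDG against 18.5%, 66.8% and 48.1% of 3485 sites without, a difference of -23.1 ± 13.0 points that was negative in 3 of 3 animals (exact permutation p = 0.3). Averaged within the classes, the difference was -0.066 points.

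Without TDG, PolII_S5P was more frequent in each wider class, in all 3 animals. With TDG it was highest in 1 of the 2 middle classes and lower again in the widest. The makeup of the TDG-bearing sites differed between the ends of this range, with TDG in 2 or 3 animals at 36 of the 61 widest sites (59.0%) and at 4 of the 61 narrowest (6.56%). The 37 recurrent members in runs of 4 or more have no PolII_S5P, and the width classes were not taken without these runs. At the widest sites, H3K27ac of all 3 animals was present at 98.4% with TDG and 94.0% without. At the narrowest sites it was present at 55.7% and 44.7%, and MBD3 of all 3 animals at 63.9% and 29.9%. Median widths there were 534 bp with TDG and 409 bp without, so this class did not match the 2 sets in width or marks. The width classes were added after the difference without them had been seen.

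**Figure D3:**
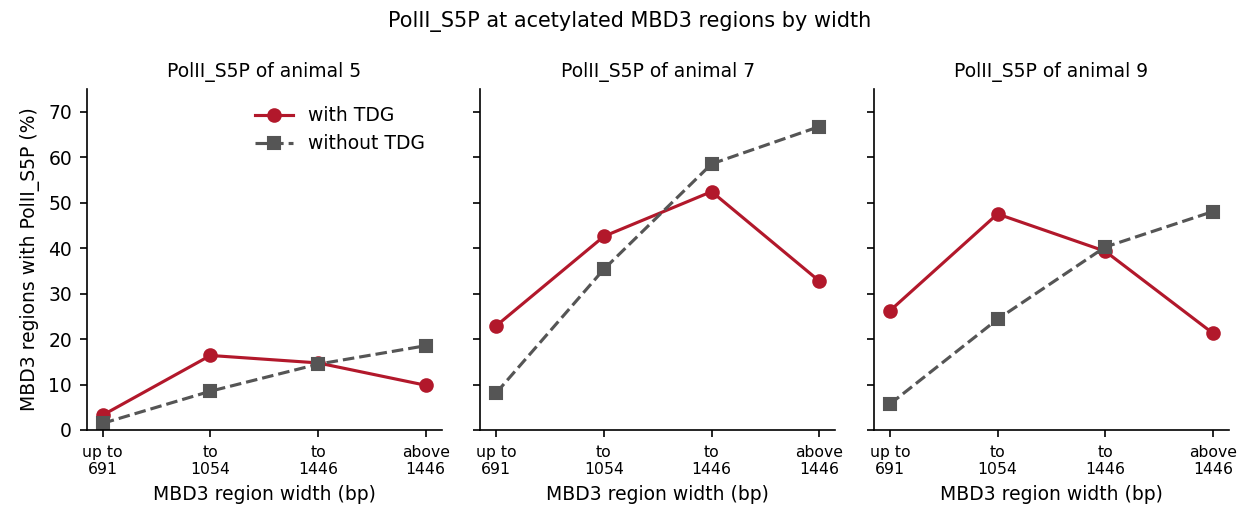
Percent of MBD3 regions with H3K27ac and without H3K4me1 that carried a PolII_S5P peak, by width of the MBD3 region in bp, for regions with TDG (61 per class) and without TDG, 1 panel per animal. In the widest class the share was 9.84%, 32.8% and 21.3% with TDG and 18.5%, 66.8% and 48.1% without.

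The TDG summit was mostly some way from the MBD3 summit at member regions. The distance was taken from the summit of the best TDG peak to the nearest summit of an MBD3 peak that overlaps the region in the same animal. Over 379 such distances in members the median was 136 bp and the largest 1555 bp. Of these, 115 were within 50 bp, 2 were 0 and 4 exceeded 1000 bp. The median at members was 185.5 bp in animal 5 (68 regions), 156 bp in animal 7 (58) and 112 bp in animal 9 (253). At other TDG regions with such an MBD3 peak it was 48.5 bp (22 regions), 49.5 bp (30) and 94.5 bp (308). All 3 member medians were larger than all 3 of the others, with means of 151 ± 37.0 and 64.2 ± 26.3 bp and a difference of 87.0 ± 62.1 bp (SD, n = 3, exact permutation p = 0.1, adjusted p = 0.238). Members were also wider: those with TDG in animals 5, 7 and 9 had median widths of 489, 486.5 and 312 bp. All other TDG regions of these animals had 309, 296 and 275 bp, and the part of width in the distances was not tested. Distances within 50 bp made up 29.4%, 31.0% and 30.4% of those at members and 50%, 50% and 34.4% at other regions. The 2 sets were closer to each other in animal 9 than in the other 2 animals. Regions with H3K4me1 had medians of 31.5 bp (4 regions), 12 bp (6) and 111 bp (243), so that in animal 9, which gave most of them, the median was 1 bp below that of members. There 30.4% of members and 31.7% of regions with H3K4me1 were within 50 bp. The difference from other TDG regions was 40.7 bp with regions within 100 kb counted once (exact permutation p = 0.3) and 42.3 bp without members in runs of 4 or more (exact permutation p = 0.3). It was 38.7 bp with 0.5 of the region covered (exact permutation p = 0.4) and 56.3 bp without animal 5. When a peak of another antibody counted only with its summit inside the TDG region, the difference was -56.8 bp, from means of 104 and 161 bp. That setting itself sorts regions by where the MBD3 summit lies, so its sign cannot serve as a check of the distance.

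The distance was shorter at members with PolII_S5P than at those without in animals 5, 7 and 9. Members with a PolII_S5P peak of any animal had median distances of 52.5, 60 and 91 bp in animals 5, 7 and 9, and members without had 266, 192 and 145 bp. All 3 values with PolII_S5P lay below all 3 without, a difference of -133 ± 79.8 bp (SD, n = 3, exact permutation p = 0.1, adjusted p = 0.238). The values rest on 18, 19 and 99 distances with PolII_S5P and 50, 39 and 154 without. The MBD3 peaks at these distances had median widths of 1202, 1017 and 629 bp with PolII_S5P and 1432, 1441 and 580.5 bp without, and the part of width was not tested. Outside runs of 4 or more members the medians were 52.5, 60 and 90 bp with PolII_S5P and 240, 260 and 91 bp without, so that in animal 9 they no longer stood apart.

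**Figure D4:**
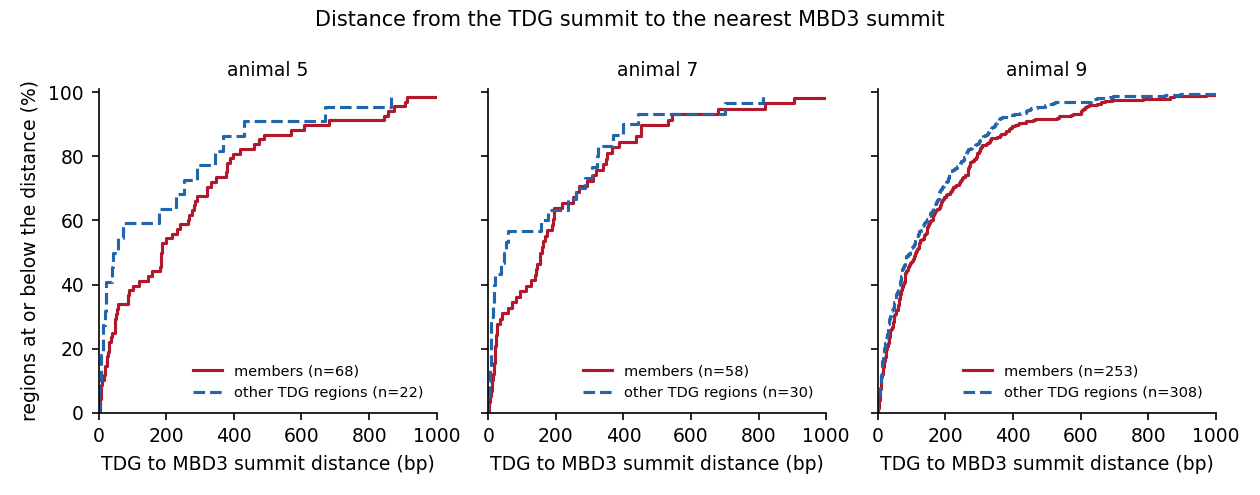
Cumulative percent of regions against the distance in bp from the TDG summit to the nearest MBD3 summit in the same animal, for members and other TDG regions with such an MBD3 peak, 1 panel per animal, with the axis ending at 1000 bp. The member curve lies to the right in animals 5 and 7, with medians of 185.5 and 156 bp against 48.5 and 49.5 bp, and close to the other curve in animal 9.

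Where a peak of the same animal was present, TDG summits lay inside the MBD3 peak at nearly all members and inside the H3K27ac peak at fewer. With an MBD3 peak of the animal on the region, the TDG summit was inside it at 67 of 68 members in animal 5, 58 of 58 in animal 7 and 234 of 253 in animal 9. With an H3K27ac peak of the animal, the summit was inside it at 43 of 67, 44 of 56 and 173 of 243 members. At regions with H3K4me1 the summit was inside the MBD3 peak at 4 of 4, 6 of 6 and 211 of 243. It was inside the H3K27ac peak there at 11 of 11, 7 of 7 and 259 of 271. The H3K27ac peaks of those regions were wider, with medians of 1889, 1927.5 and 1805 bp against 1395, 1230 and 1067 bp at members. The part of this width was not tested. At recurrent members the TDG summit was inside H3K27ac at 40 of 64, 42 of 54 and 26 of 61, with the lowest share in animal 9. The nearest H3K27ac summit was at a median of 290, 242.5 and 234 bp over all members. Since overlap with both marks chose the members, these counts are a description, and no test of them is given.

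Member regions lay close together in a few places. Another member lay within 100 kb, midpoint to midpoint, at 70 of 294 members (23.8%, 19.1 to 29.1%). For other TDG regions among themselves this was 243 of 827 (29.4%), for regions with H3K4me1 17.4%, and any other TDG region lay within 100 kb of 32.6% of all TDG regions. The larger a set, the more neighbours it has, so these shares were not tested. Without animal 9, 50% of the then 80 members had another within 100 kb. Within 10 kb the order was the reverse, with 50 of 294 members (17.0%) and 95 of 827 other regions (11.5%). These 50 include all 16 members of the longest run, described below, and the share within 10 kb was not taken without it. Within 100 kb the share of members without that run was 19.4%. Within 1 Mb members were again lower, with 42.5% against 67.1% of other regions. Recurrence went with this spacing, since 42 of 77 recurrent members (54.5%) had a member within 100 kb, against 28 of 217 with TDG in 1 animal (12.9%).

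The 70 clustered members formed 16 runs, in which each member lies within 100 kb of the next. Of these runs, 8 held 2 members and 8 held 4 or more. Runs of 4 or more comprised 54 members, of which 37 were recurrent and 3 had a PolII_S5P peak. Of the 40 recurrent members outside them, 18 (45%) had PolII_S5P. Chromosome 6 held 34 members (11.6%, against 7.31% of all TDG regions), 22 of them recurrent and 24 in 2 long runs, and chromosome 11 held 21 with 11 recurrent.

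The longest run covered chr6:47631777-47749349 with 16 members, 13 with TDG in 3 animals and 3 with TDG in 2. Of its 15 gaps between midpoints, 13 measured 4149.5 to 4986.5 bp, and the median gap was 4382 bp. TDG folds in the run were 2.78 to 7.06 in animal 5, 1.66 to 13.4 in animal 7 and 1.93 to 9.12 in animal 9. Its MBD3 folds had medians of 10.9, 10.9 and 4.86, against 9.69, 8.87 and 6.42 over all members. Its H3K27ac folds were low, with medians of 2.94, 3.05 and 1.96, against 5.44, 5.76 and 5.08 over all members. No PolII_S5P peak was called in any of the 16. The span held 4 other TDG regions, all with MBD3 and all without H3K27ac.

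In this run the MBD3 summit lay on the same side of TDG nearly throughout. It was at the higher coordinate in 13 of 13 members with a distance in animal 5, 15 of 16 in animal 7 and 16 of 16 in animal 9, at median distances of 321, 177.5 and 269 bp. Over all members it was at the higher coordinate in 47 of 68, 35 of 58 and 132 of 253. The 16 regions were counted as separate members, and whether reads could be assigned uniquely between them was not tested.

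The second run on chromosome 6, chr6:128736983-128820367, held 8 members, 2 with TDG in 3 animals, 2 in 2 and 4 in 1. Its gaps, 663, 3337, 34775, 588, 3541, 36020 and 4165.5 bp, in order of position, were of unequal size. MBD3 was present in all 3 animals at each of the 8, and none had PolII_S5P. Median TDG folds were 6.85, 8.26 and 6.71. At its first member, chr6:128736983-128737276, the MBD3 summit was 843, 818 and 259 bp away, the largest mean distance among members with a distance in all 3 animals.

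The other runs were mixed in recurrence. That at chr11:68927600-69015225 held 7 members, 1 with PolII_S5P, and median TDG folds of 8.74, 9.32 and 10.9. At chr13:23615457-23746367 there were 6 members, 3 with TDG in 2 animals and 3 in 1, with folds up to 31.3 in animal 9. At chr5:125466887-125486697 there were 5 members at a median gap of 2231.75 bp, none with a TDG peak in animal 7. Runs of 4 members lay at chr1:170865495-170939285, chr11:48709222-48747561 and chr14:51301077-51328216, without PolII_S5P. The run at chr11:48709222-48747561 had no TDG peak in animal 7 either, while its TDG folds were 9.89 to 15.0 in animal 5 and 8.53 to 26.1 in animal 9. No other TDG region within the span of these 8 runs carried H3K4me1.

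**Figure D5:**
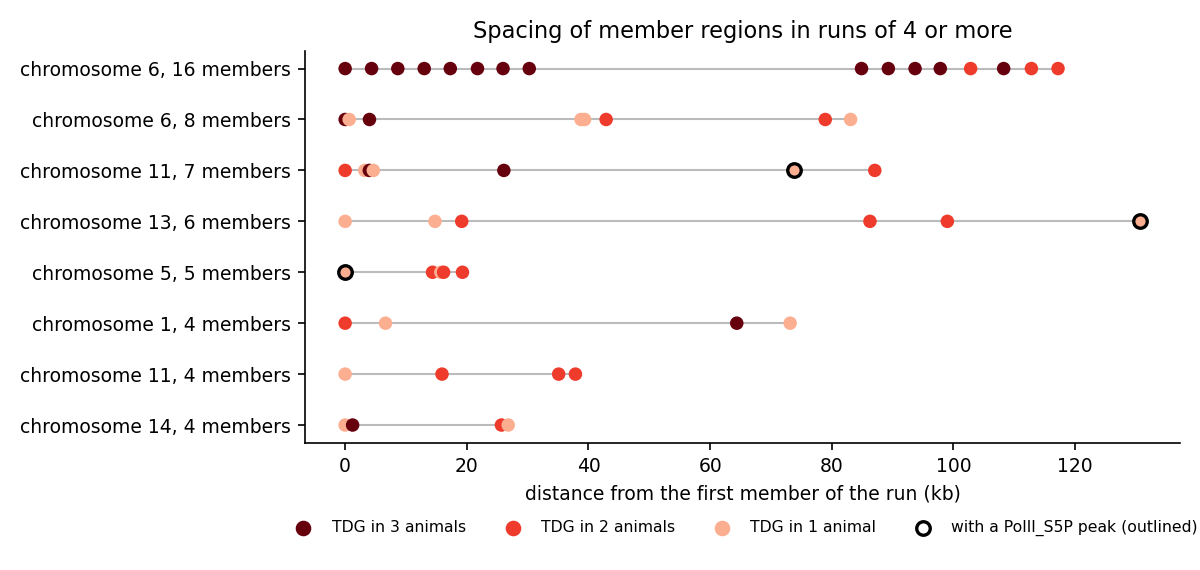
Positions of member regions in the 8 runs of 4 or more members, as distance in kb from the first member of the run, coloured by the number of animals with a TDG peak and outlined where PolII_S5P was called. The 16 members of the top row are spaced at a median of 4382 bp, and 3 of the 54 members shown carry PolII_S5P.

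The strongest members differed in what stood beside TDG. The best mean rank of TDG was at chr13:21894295-21895563, with TDG folds of 19.3, 22.7 and 39.6 in animals 5, 7 and 9. Its MBD3 folds were 12.8, 14.0 and 16.9 and its H3K27ac folds 5.25, 8.24 and 7.11, with no PolII_S5P. The MBD3 summit lay 905 and 904 bp from the TDG summit, at the lower coordinate, in animals 5 and 7, but 7 bp from it at the higher coordinate in animal 9. At chr3:96407640-96408998 (TDG folds 15.5, 16.7 and 24.6) the MBD3 summit was within 7 bp in animals 5 and 9 and 1112 bp away in animal 7. At these 2 wide regions, of 1269 and 1359 bp, the chosen summits thus moved between animals.

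A narrow region with close summits was also among the strongest. So were 3 wider regions, of 567, 550 and 515 bp, with PolII_S5P in all 3 animals. At chr2:18591802-18592055, 254 bp wide, TDG folds were 13.1, 14.4 and 18.8, MBD3 folds 11.1, 7.14 and 6.56, and the summits lay 10, 3 and 9 bp apart, the smallest mean distance among members with a distance in all 3 animals. At chr5:129577853-129578419 (TDG folds 14.6, 15.9 and 20.9) PolII_S5P was present at folds of 2.25, 3.48 and 3.02, with the MBD3 summit 88, 153 and 89 bp away at the lower coordinate. At chr7:19295987-19296536 (13.1, 13.4 and 15.4) PolII_S5P was present at 2.33, 2.70 and 2.04, and the summits lay 15, 3 and 62 bp apart. At chr9:99450539-99451053 (11.9, 8.83 and 13.8) PolII_S5P was present at 2.87, 3.72 and 2.87 beside strong MBD3 peaks of 18.03, 17.2 and 8.76. The summits of TDG and MBD3 there lay 49, 139 and 138 bp apart. The PolII_S5P folds at these 3 regions lay below the median of each PolII_S5P list (3.82, 4.03 and 3.91).

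Among the other 6 of the 12 best members with TDG in 3 animals, PolII_S5P was called in 1 or 2 animals at 3. These were chr6:113283786-113284283 (TDG folds 13.7, 15.0 and 15.6), with PolII_S5P in animal 7 only, and chr6:126916513-126917037 (12.5, 20.5 and 15.4) and chr7:127375722-127376632 (10.2, 16.2 and 14.0), with PolII_S5P in animals 7 and 9. No PolII_S5P was called at chr16:57427066-57427615 (11.5, 15.6 and 20.0), chr11:68953758-68954464 (12.6, 11.2 and 17.3) and chr5:124620977-124621614 (10.2, 19.5 and 11.7). The first of these carried MBD3 peaks in animals 7 and 9 only, at folds of 3.73 and 3.40, below the MBD3 list medians of 5.63 and 5.55.

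Some strong TDG peaks were missing from 1 animal. The 5 best members with TDG in 2 animals all had it in animals 5 and 9. Their folds were 15.0 and 26.1 at chr11:48725084-48725502, 12.9 and 31.3 at chr13:23701274-23702455, 15.3 and 17.8 at chr13:23714453-23714715, 10.8 and 20.8 at chr5:125481219-125481527, and 10.7 and 15.5 at chr1:170865495-170866340. Each of them belonged to a run of 4 or more members. MBD3 peaks of animal 7 were called at all 5, with folds of 13.3, 10.1, 8.82, 8.42 and 5.81 in the same order. An MBD3 peak was part of the rule, and animal 7 had one at 287 of the 294 members, so these 5 do not stand out.

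The 5 best members with TDG in 1 animal came from animal 9, at chr3:97065277-97065549 (fold 17.9), chr13:23615457-23615730 (12.4), chr12:71015825-71016053 (11.5), chr1:132961474-132962193 (10.9) and chr7:98464511-98465146 (9.75). At the first 2 of these the MBD3 peaks were in animals 5 and 7, at folds of 16.4 and 8.87 and of 15.8 and 14.4, and none was called in animal 9, where the TDG peak was. None of these 10 members with TDG in 1 or 2 animals had a PolII_S5P peak.

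The threshold of the rule lies at 1 bp of overlap, and the members with the smallest overlaps lay just inside it. These were chr7:144033347-144033597, with 7 bp of H3K27ac and a TDG fold of 5.18 in animal 9, chr15:57839272-57839591, with 8 bp of H3K27ac and TDG folds of 10.5, 7.20 and 12.3, and chr4:34581704-34581936, with 14 bp of MBD3 and a TDG fold of 3.65 in animal 9. Just outside were regions that met an H3K4me1 peak by 8, 12 and 13 bp, at chr13:99502938-99503277, chr13:69038066-69038647 and chr15:68977013-68977367, with TDG folds of 5.09, 2.98 and 3.83 in animal 9. Some members had an H3K4me1 peak nearby. Leaving chromosome 18 aside, an H3K4me1 peak lay within 1 kb of 111 of 286 members (38.8%). This was so at 18 of 77 recurrent members (23.4%) and at 93 of 209 with TDG in 1 animal (44.5%). The share was not taken over other TDG regions, so these counts do not set members apart from them.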

How the data were processed

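Each of the 15 ChIP libraries had 1 peak list in the narrowPeak layout, and the 3 inputs were not analysed here. Per the submitters' processing notes the build was mm39 and the tools included MACS2 2.2.7.1, Picard 2.18.29, SAMtools 1.16.1, Trim Galore 0.6.7 and bcl2fastq 2.20. No aligner or control is given in the sources used here. Each deposited row gives a peak's whole-number score, its fold enrichment over local background (a ratio), the −log10 of its p-value and of its q-value (lowest per list 1.30 to 1.44), and an offset, another kind of number, that places the summit in bp from the start. All are values of the authors. The MBD3 and TDG lists name unplaced contigs differently from the lists of the other 3 antibodies, a difference that cannot be told apart from the antibody. Coordinates are on mm39, counted from 1.

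Regions were merged, overlapped and measured with pandas 2.3.3, numpy 2.4.6 and scipy 1.17.1 in Python 3.11.15 (figures with matplotlib 3.10.9), and simulated peak lists served to test the overlap code. Folds are the authors' values and were compared only between regions of the same list, as medians, ranks or percentiles. Per-animal values were compared by two-sided exact permutation over 20 arrangements. The labels give 1 number to all libraries of an animal, which pairs them, and the paired test is an alternative. Regions were named by rule: the 12 best mean TDG ranks with TDG in 3 animals, the 5 best each with TDG in 2 and in 1 animal, runs of 5 or more, and the extremes of summit distance and overlap. The runs of 4 were added after their values were seen. No region on chromosome 18 is named. The members, classes and tests were chosen with earlier results of these data known. Sequence content and gene annotation were planned but not run, since no mm39 reference was used here.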

Additional observations from a re-analysis of the deposited data

How the results depend on the processing

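No comparison could pass 0.05 under any setting, so only signs and sizes are given here. Of 89 alternative values, 12 changed sign and 9 counts or shares moved, and the cause was not tested unless stated. The difference in PolII_S5P between members and other TDG regions, -1.66 points, took the opposite sign under 8 alternatives. It was 8.23 with the summit of the other peak required inside the region, 16.3 without animal 5 (range over animals left out -10.4 to 16.3), 6.34 with regions within 100 kb counted once, and 3.15 with PolII_S5P of any animal. Counting once kept the neighbour with TDG in most animals and then the strongest TDG peak. Under settings chosen after seeing the data it was 10.2 over every region of a class, 3.20 without the run of 16 members, 9.23 without members in runs of 4 or more and 25.6 over regions with TDG in 1 animal. The last value weights the animals equally, though members with TDG in 1 animal numbered 3, 2 and 212 in animals 5, 7 and 9. The difference in summit distance was -56.8 bp with the summit required inside the region, a setting that itself sorts regions by the MBD3 summit. It was -6275 bp with the nearest MBD3 summit anywhere, since most other regions then counted have no MBD3 peak. The strength difference was -8.97 over regions with TDG in 1 animal, again from 3, 2 and 212 members. The PolII_S5P difference between MBD3 sites with and without TDG was -0.066 within width classes. The number of members was 152 once every peak needed a −log10 q of 5 or more, 172 with the summit inside, and 80 to 298 with 1 animal left out, lowest without animal 9. The share of members near another was 37.5% at that q, 13.4% with the summit inside, 17.4% with 0.5 of the region covered, 17.0% within 10 kb, 42.5% within 1 Mb, and 21.8 to 50% with 1 animal left out.

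With 1 animal left out, the recurrence difference was 32.4 to 49.8, the strength difference 14.2 to 33.0, the distance difference 56.3 to 118.5 bp and the difference by TDG at MBD3 sites 2.87 to 10.2. With pairing by animal as a replicate block the differences are the same by construction, such as 24.6 for strength (exact permutation p = 0.25, the smallest it can give). Depth is unknown, and the short TDG lists of animals 5 and 7 limit every value split by recurrence.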
